A study of Mus musculus with 8 samples.

Results

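The growth hormone and IGF1 axis of the liver was examined through 10 genes, *Ghr*, *Igf1*, *Igfals*, *Igfbp1*, *Igfbp2*, *Socs2*, *Cish*, *Stat5a*, *Stat5b* and *Bcl6*. They were chosen by name from the 18095 genes of a liver RNA-seq count table through their Ensembl identifiers in the GRCm38 annotation, and all 10 were found. Livers came from male mice on a high-fat diet (HFD), 4 wild type (HFD WT) and 4 lacking INPP4B, a phosphatase of phosphoinositide lipids (HFD Inpp4b-/-), dissected at 12 weeks of age. The dams had received the same HFD from before mating, and the pups stayed on it, so both groups had it throughout life. The Inpp4b-/- allele was present in the whole animal and not in the liver alone. The labels name C57BL/6 as the strain background, whereas the methods name FVB. Whether the 2 groups were littermates and the hour of dissection are not given in the sources used here. The discussion of the study refers to liver transcripts in the fed state, and its methods give no time since feeding for these mice. Totals were 25893430 to 31427831 counts per HFD WT library and 32738435 to 36662531 per library labelled HFD Inpp4b-/-.

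Growth hormone from the pituitary binds its receptor on hepatocytes, which activates the kinase JAK2 and the transcription factors STAT5A and STAT5B. STAT5 induces *Igf1*, the growth factor that the liver secretes, *Igfals*, whose product holds IGF1 in a long-lived complex in blood, and the feedback inhibitors *Cish* and *Socs2*. In rodents the hormone is released in pulses in males and more evenly in females, and the repressor BCL6 is a male-biased factor of this pathway. The carriers IGFBP1 and IGFBP2 bind IGF1 in blood, and insulin represses *Igfbp1*.

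*Inpp4b* was at the limit of what these libraries show, with 5 to 20 counts in HFD WT and 9 to 33 in the libraries labelled HFD Inpp4b-/-. Its counts were thus not lower under that label. The log2 ratio of mean CPM (counts divided by the TMM-normalized library total and multiplied by 1000000) was 0.49, labelled HFD Inpp4b-/- over HFD WT. The ranges overlapped, at 0.17 to 0.63 CPM in HFD WT and 0.26 to 0.92 CPM under the other label. A two-sided exact permutation test on the group means of log2(CPM + 0.1) gave p = 0.486. The counts do not show which exons were read, so directions below follow the labels. Hepatocyte markers (*Alb*, *Apoa1*, *Ttr*, *Serpinc1*, *Hnf4a* and *Tat*) were abundant in every library, with a summed 70736 to 77299 CPM in HFD WT and 75129 to 91698 CPM in the libraries labelled HFD Inpp4b-/-. Singly, the groups did not overlap for 2 markers higher and 1 lower under that label, beside 8.72% of all tested genes. Log2 fold changes of the 6 by edgeR ran from -1.08 to 0.31, and 0 passed the threshold given below. The 4 adipocyte markers *Adipoq*, *Plin1*, *Lep* and *Retn* were not in the count table. In bulk liver, fewer cells of a type and less RNA per cell cannot be told apart.

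None of the 10 axis genes was differentially expressed, that is, had an adjusted p under 0.10 with a fold change over 1.3 by edgeR's quasi-likelihood test over all 14866 tested genes. The share of tested genes past that threshold was 1.17% (174 genes), 0.552% higher and 0.619% lower under the label HFD Inpp4b-/-, so a list of 10 genes with none called does not stand out. All 10 passed the expression filter. At an unadjusted p under 0.05 there were 4 members, *Igfbp1*, *Cish*, *Igfbp2* and *Stat5a*, where 13.9% of tested genes had such a p. With DESeq2, 1 member was called, *Igfbp1* (adjusted p = 0.0285), where the share called by that tool was 4.04%. Of the 10 genes, 6 had a log2 fold change above 0 and 4 below, with a median of 0.07, beside 0.0027 over all tested genes. For each member the ranges of the 2 groups overlapped, whereas they did not overlap for 8.72% of tested genes.

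**Figure D1:**
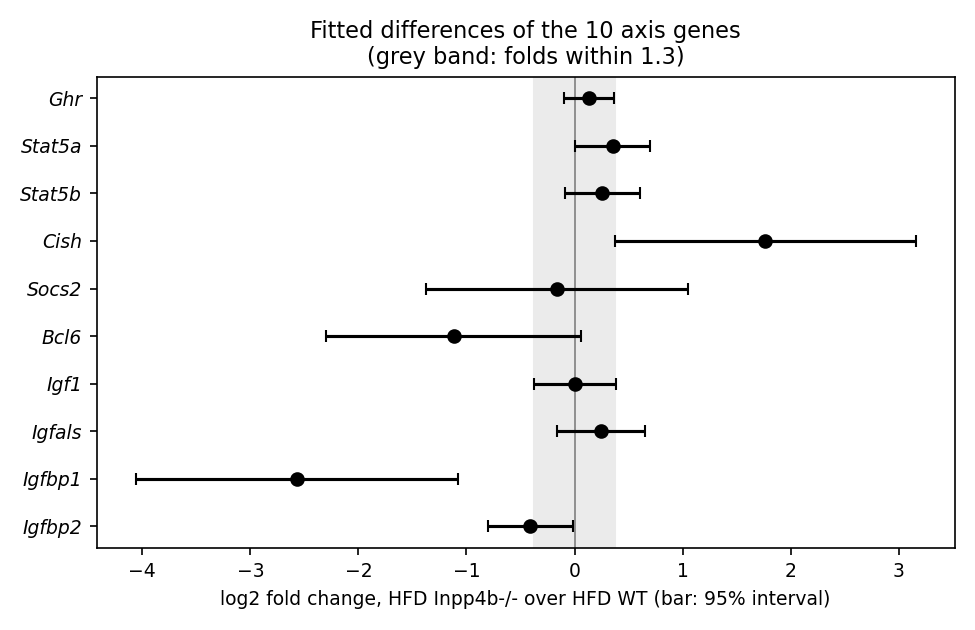
Log2 fold change (x axis, labelled HFD Inpp4b-/- over HFD WT) of each axis gene (y axis), with edgeR's estimate as a point and its 95% interval as a bar. The interval of *Igfbp1* lies between -4.06 and -1.08 and is the one farthest from 0, while that of *Igf1* is centred on 0.0065.

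The axis genes were expressed at very different levels. Per kb of exon (CPM divided by the union exon length of the gene), the mean over the 8 libraries was 128 ± 30.2 (SD) for *Igfbp2*, 77.9 ± 13.7 for *Igf1*, 75.4 ± 7.15 for *Ghr* and 50.7 ± 10.8 for *Igfals*. These 4 genes had higher levels than 94.9% or more of the genes in the table, and each had a range over libraries that overlapped that of its neighbour in this order. Below them, with no overlap between *Igfals* and *Igfbp1*, came *Igfbp1* at 10.6 ± 13.1, *Stat5b* at 9.69 ± 1.93, *Bcl6* at 7.93 ± 5.32, *Cish* at 4.16 ± 3.10, *Socs2* at 3.79 ± 2.54 and *Stat5a* at 2.41 ± 0.519 CPM per kb. Neighbours among these 6 overlapped in range, so the order of neighbours is not resolved. Genes farther apart could be separate, as *Stat5b* (7.96 to 13.9 CPM per kb) was from *Stat5a* (2.04 to 3.38 CPM per kb).

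They also differed in how far mice of 1 genotype lay apart. In HFD WT the highest library exceeded the lowest by 15.3-fold for *Cish*, 9.38-fold for *Igfbp1*, 5.65-fold for *Bcl6* and 5.05-fold for *Socs2*, but by 1.09-fold to 1.64-fold for the other 6. In the libraries labelled HFD Inpp4b-/- these 4 genes spanned 2.28-fold to 3.94-fold and the other 6 at most 1.75-fold. The median gene with at least 50 counts on average spanned 1.39-fold in HFD WT and 1.31-fold in the libraries labelled HFD Inpp4b-/-. Of these 11693 genes, 0.539% had a wider HFD WT range than *Cish* and 2.28% a wider one than *Socs2*. For *Bcl6* and *Igfbp1* these shares were 1.82% and 0.907%. In the libraries labelled HFD Inpp4b-/-, *Igf1* spanned 1.71-fold, *Igfals* 1.63-fold and *Igfbp2* 1.57-fold, and 18.1%, 21.2% and 24.7% of genes spanned more. *Ghr* spanned 1.05-fold there, less than 99.1% of genes.

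**Figure D2:**
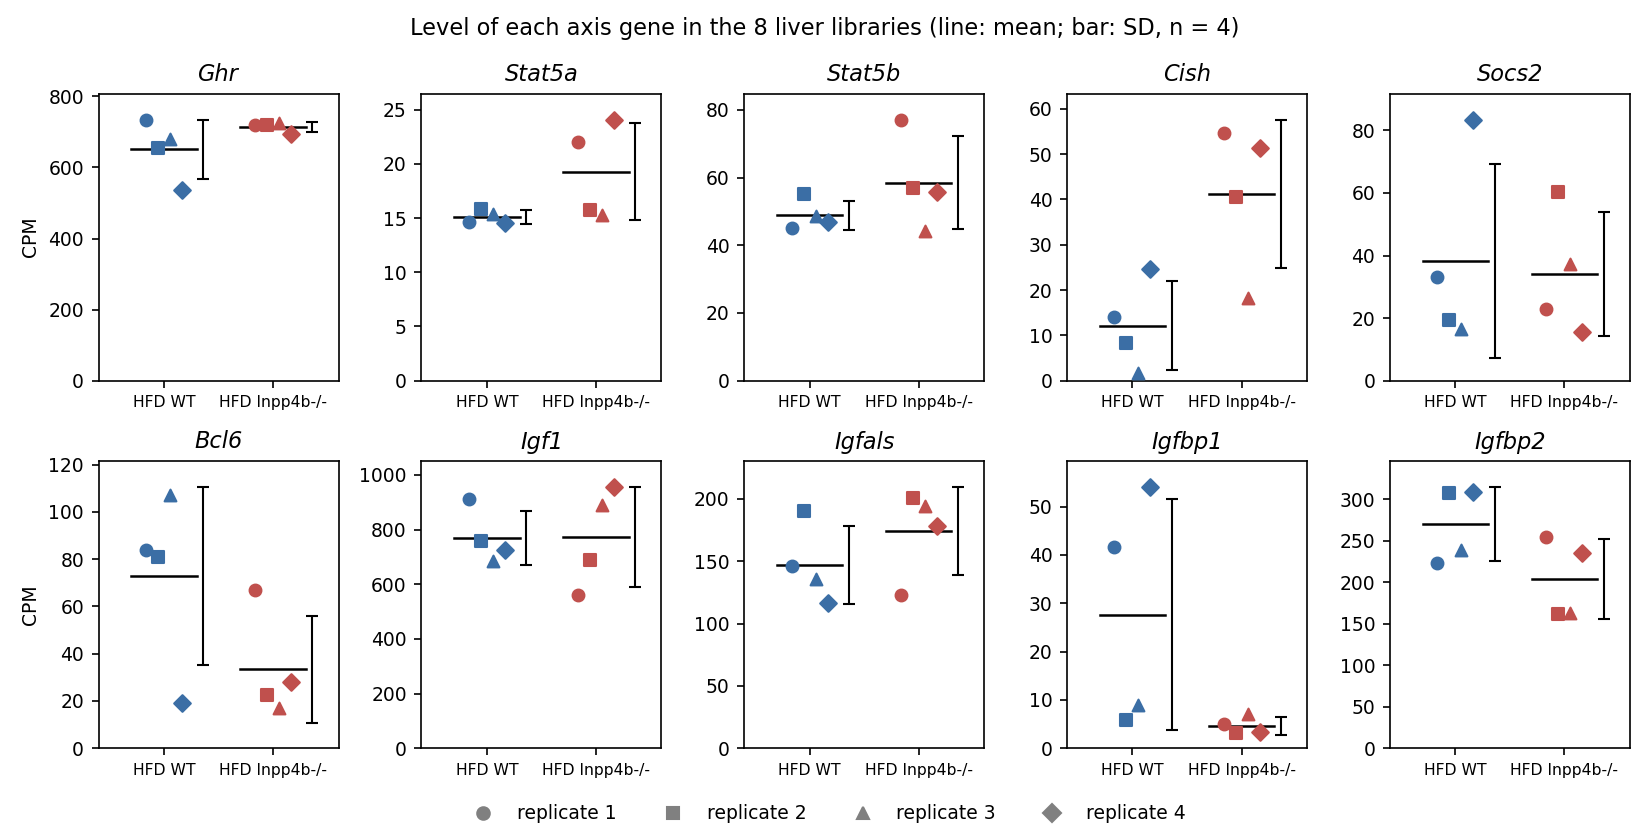
CPM (y axis, linear from 0) of each axis gene in the 4 HFD WT libraries (blue) and the 4 libraries labelled HFD Inpp4b-/- (red). Symbols mark the replicate, horizontal lines the mean and bars the SD (n = 4). The means of *Ghr* (651 CPM in HFD WT and 714 CPM under the other label) and *Igf1* (769.7 and 773 CPM) are close. The red points of *Igf1* spread from 559 to 955 CPM. *Igfbp1* is high in HFD WT replicates 1 and 4, at 41.6 and 54.0 CPM, and at 8.99 CPM or less in the other 6 libraries.

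*Ghr* (ENSMUSG00000055737, chromosome 15 of GRCm38, 3317760 to 3583492) encodes the receptor through which the liver senses growth hormone. It was at 734, 655, 679.6 and 536 CPM in HFD WT replicates 1 to 4, and at 718, 718, 725 and 693 CPM in replicates 1 to 4 labelled HFD Inpp4b-/-. The latter 4 lay within the HFD WT range. The log2 fold change was 0.13 (standard error, SE, 0.10, 95% interval -0.10 to 0.37, adjusted p = 0.613 by edgeR).

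*Stat5b* (ENSMUSG00000020919, chromosome 11, 100780731 to 100850724) and its neighbour *Stat5a* (ENSMUSG00000004043, chromosome 11, 100859351 to 100885169) encode the factors that carry the signal to the nucleus, of which STAT5B is the main one in liver. The 2 genes are close paralogs and can share reads, so the split between them is uncertain. *Stat5b* was at 45.1 to 55.0 CPM in HFD WT and at 44.1 to 77.1 CPM in the libraries labelled HFD Inpp4b-/-, with a log2 fold change of 0.26 (SE 0.15, adjusted p = 0.490 by edgeR). *Stat5a* was at 14.6, 15.9, 15.4 and 14.5 CPM in HFD WT replicates 1 to 4. Those labelled HFD Inpp4b-/- had, in the same order, 22.1, 15.8, 15.3 and 24.1 CPM. Replicates 1 and 4 under that label lay above every HFD WT library and replicates 2 and 3 within their range. The log2 fold change of *Stat5a* was 0.35 (SE 0.16, 95% interval 0.0066 to 0.70), with an adjusted p of 0.351 from edgeR. Its exons share 72 bases with those of *Stat3*, which lies beside it on the other strand.

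*Cish* (ENSMUSG00000032578, chromosome 9, 107296026 to 107302784) encodes a SOCS-family inhibitor that STAT5 induces and that in turn dampens the receptor. It was at 13.9, 8.38, 1.62 and 24.7 CPM in HFD WT replicates 1 to 4. Those labelled HFD Inpp4b-/- had, in the same order, 54.6, 40.6, 18.3 and 51.3 CPM. Replicates 1, 2 and 4 of the latter lay above every HFD WT library, and replicate 3 fell below HFD WT replicate 4. The mean was 41.2 ± 16.4 CPM (SD, n = 4) under the label HFD Inpp4b-/-, beside 12.2 ± 9.78 CPM (SD, n = 4) in HFD WT, a 3.40-fold difference. Its log2 fold change of 1.77 (SE 0.62, 95% interval 0.37 to 3.16) was not a call (adjusted p = 0.259 by edgeR, and a two-sided exact permutation test on log2 CPM gave p = 0.0571, where 0.0286 is the smallest that 4 against 4 allow). Without 1 library it ran from 1.40 (without HFD WT replicate 3, adjusted p = 0.238 by edgeR) to 2.37 (without HFD WT replicate 4, 0.160), and without HFD WT replicates 1 and 4 together, an omission chosen after seeing the data, it was 3.04 (0.160). The exons of *Cish* overlap those of *Gm17041* and *Gm17040* on the other strand. *Gm17040* had 1 to 22 counts in HFD WT and 1 to 46 in the libraries labelled HFD Inpp4b-/-, beside 48 to 644 and 568 to 1969 counts of *Cish*.

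*Socs2* (ENSMUSG00000020027, chromosome 10, 95385362 to 95417180), the other feedback inhibitor of the group, is also induced by STAT5, and its loss causes overgrowth in mice. It was at 33.2, 19.5, 16.5 and 83.5 CPM in HFD WT replicates 1 to 4. In the libraries labelled HFD Inpp4b-/- it was at 22.9, 60.4, 37.3 and 15.6 CPM. The lowest and the second highest of the 8 libraries thus carried the same label. The log2 fold change of -0.16 (SE 0.54, 95% interval -1.38 to 1.05, adjusted p = 0.925 by edgeR) became 0.56 without HFD WT replicate 4 and 0.08 without replicate 4 labelled HFD Inpp4b-/-, so its direction depended on single libraries. *Cish* and *Socs2*, both STAT5 targets, differed in this respect, although the difference between their fold changes was not tested.

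*Bcl6* (ENSMUSG00000022508, chromosome 16, 23965052 to 23988852) encodes a repressor that binds many of the same liver sites as STAT5 and is itself repressed when STAT5 is active. It was at 83.7, 80.9, 107 and 19.0 CPM in HFD WT replicates 1 to 4, and at 66.7, 22.3, 16.9 and 28.0 CPM in replicates 1 to 4 labelled HFD Inpp4b-/-. HFD WT replicate 4 was among the low libraries and replicate 1 labelled HFD Inpp4b-/- among the high ones. The mean was 33.5 ± 22.6 CPM (SD, n = 4) under the label HFD Inpp4b-/-, beside 72.7 ± 37.7 CPM (SD, n = 4) in HFD WT. This gave a log2 fold change of -1.12 (SE 0.53, 95% interval -2.30 to 0.06), with an adjusted p of 0.386 from edgeR. It was -1.70 without replicate 1 labelled HFD Inpp4b-/- (adjusted p = 0.295 by edgeR) and -1.44 without HFD WT replicate 4 (0.191), and it was -0.87 without HFD WT replicate 3 (0.560) and -0.90 without replicate 3 labelled HFD Inpp4b-/- (0.570).

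**Figure D3:**
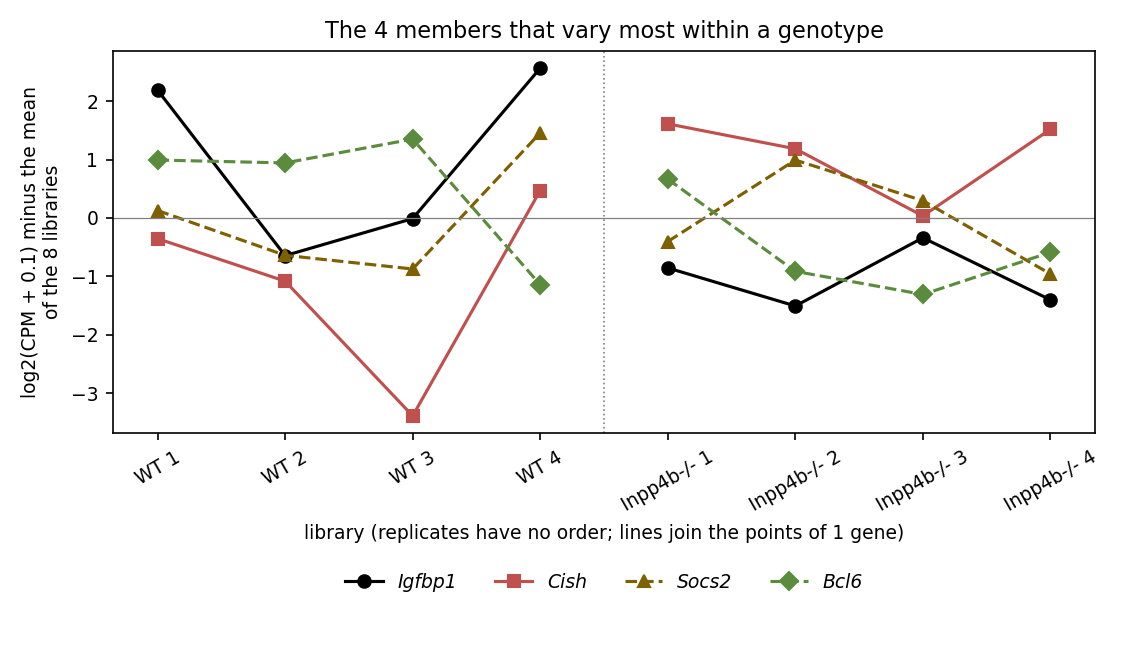
Log2(CPM + 0.1) of *Igfbp1*, *Cish*, *Socs2* and *Bcl6* (y axis, minus each gene's mean over the 8 libraries) in each library (x axis, HFD WT left of the dotted line, labelled HFD Inpp4b-/- right of it). In HFD WT replicate 4, *Socs2* is at its highest, 83.5 CPM, and *Bcl6* near its lowest, 19.0 CPM, while *Cish* is lowest in HFD WT replicate 3, at 1.62 CPM.

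*Socs2* and *Bcl6* lay on opposite sides in several mice. Over the 8 libraries Pearson's r of their log2(CPM + 0.1) was -0.64 (exact permutation p = 0.0906) and Spearman's rho -0.62 (exact permutation p = 0.115), and with the genotype means removed r was -0.77. Without the 2 libraries farthest from the median of *Socs2*, r was -0.33, so the relation rests on those libraries. Of the 45 pairs of members, 0 had an exact permutation p of Pearson's r under 0.05, and after Benjamini-Hochberg adjustment none was below 0.635. The smallest unadjusted p of Pearson's r was that of *Stat5a* with *Stat5b* (r = 0.72, exact permutation p = 0.0541, rho = 0.79, exact permutation p = 0.0279, adjusted 0.413), a pair that can share reads. By Spearman's rho the smallest were those of *Ghr* with *Igfbp2* and of *Igfbp1* with *Stat5a*, both with rho = -0.83 (exact permutation p = 0.0154, adjusted 0.346) and with r of -0.67 and -0.59 (exact permutation p = 0.0554 and 0.0559). The 4 libraries of each genotype are too few for a correlation within it.

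The sequence near the start of these genes was searched for TTCNNNGAA, the palindromic core to which STAT5 and other STAT factors bind, in windows from 250 bases before to 50 after each RefSeq start (GRCm38.p6). Windows were found for 9 of the 10 members, all but *Socs2*, and 5 of their 16 windows, in *Cish*, *Igfals* and *Bcl6*, held it, where 8.30% of all 32851 windows did. The sites of *Cish* and of 1 *Bcl6* start are shown because these were the windows with 2 or more, with the motif in capitals, 5′ to 3′ on the strand of the gene.
*Cish*, chr9:107296654-107296683, + strand: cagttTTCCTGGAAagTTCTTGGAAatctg
*Bcl6*, chr16:23981432-23981461, - strand: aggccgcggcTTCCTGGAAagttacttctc
*Bcl6*, chr16:23981386-23981415, - strand: ggcaggagtgTTCTGTGAAatccttagagc
*Bcl6*, chr16:23981352-23981381, - strand: atcgactacgTTCCGGGAAtgagagggctg
The pair in *Cish* covers bases 1 to 9 and 12 to 20 from the RefSeq start, and the 3 in *Bcl6* begin at -168, -122 and -88. *Igfals* held 1 in each of 2 windows. A match describes these letters and is no measure of binding.

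*Igf1* (ENSMUSG00000020053, chromosome 10, 87858265 to 87937042) encodes the growth factor itself, most of which in blood comes from the liver. It was at 912, 758, 685 and 724 CPM in HFD WT replicates 1 to 4. Those labelled HFD Inpp4b-/- had, in the same order, 559, 689, 889.9 and 955 CPM. The lowest and the highest of the 8 libraries both carried that label. The means were 769.7 ± 99.5 CPM (SD, n = 4) in HFD WT and 773 ± 182 CPM (SD, n = 4) under the label HFD Inpp4b-/-, a log2 fold change of 0.0065 (SE 0.17, adjusted p = 0.989 by edgeR). The 95% interval, -0.37 to 0.39, leaves room for differences of that size in either direction. *Igfals* (ENSMUSG00000046070, chromosome 17, 24865997 to 24882010), the acid-labile subunit of the circulating IGF1 complex, was at 146, 190.2, 136 and 116 CPM in HFD WT replicates 1 to 4 and at 123, 201, 194 and 178 CPM in those labelled HFD Inpp4b-/-. Its log2 fold change was 0.24 (95% interval -0.17 to 0.65, adjusted p = 0.598 by edgeR), smaller than the spread between mice.

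*Igfbp1* (ENSMUSG00000020429, chromosome 11, 7197782 to 7202546), a carrier that sequesters IGF1 and that fasting, glucocorticoids and stress induce, had the largest difference of the 10. It was at 41.6, 5.76, 8.99 and 54.0 CPM in HFD WT replicates 1 to 4 and at 4.97, 3.13, 7.14 and 3.37 CPM in replicates 1 to 4 labelled HFD Inpp4b-/-. The difference was carried by HFD WT replicates 1 and 4, whereas HFD WT replicate 2 lay within the range of the other group. The mean was 4.65 ± 1.85 CPM (SD, n = 4) under the label HFD Inpp4b-/-, beside 27.6 ± 23.9 CPM (SD, n = 4) in HFD WT, a 5.94-fold difference. The log2 fold change of -2.57 (SE 0.67, 95% interval -4.06 to -1.08) had an adjusted p of 0.151 by edgeR, and the two-sided exact permutation test gave p = 0.0571.

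The *Igfbp1* result changed with the libraries and the tool. It was -0.67 without HFD WT replicates 1 and 4 (adjusted p = 0.524 by edgeR) and -2.01 without replicate 4 alone (0.218). It passed the threshold without HFD WT replicate 2 (log2 fold change -2.92, adjusted p = 0.0518 by edgeR) and with DESeq2 (-2.58, adjusted p = 0.0285). HFD WT replicates 1 and 4 were also the 2 highest HFD WT libraries for 4 of the 8 tested glucocorticoid and fasting responsive genes and for 4 of the 9 tested genes that insulin represses through FOXO1, *Igfbp1* included, against 20.4% of all tested genes. The same held for 3 of 6 STAT genes, 5 of 13 clock genes and 5 of 14 negative regulators of the receptor signal. It also held for 4 of 13 liver transcription factors and 3 of 10 male-biased growth hormone targets. For IGF ligands and carriers the count was 1 of 9, for receptors and kinases 0 of 6, and for female-biased growth hormone targets 0 of 7. Over the 49 tested genes of the wider pathway described below it was 13 (26.5%). The pair of libraries was chosen after its *Igfbp1* values were seen. In HFD WT replicates 1 and 4, *Stat3*, a mediator of the response to interleukin 6, was at 234 and 147 CPM, and at 104 and 101 CPM in replicates 2 and 3. *Socs3*, a target of STAT3, was at 32.9 and 110.5 CPM in replicates 1 and 4, and at 4.69 and 6.502 CPM in replicates 2 and 3. *Socs3* did not follow *Igfbp1* in replicate 1 labelled HFD Inpp4b-/-, where it was at 66.3 CPM and *Igfbp1* at 4.97 CPM. The part of these responses in the *Igfbp1* difference was not tested.

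The 150 bases before the start of *Igfbp1* (chr11:7197637-7197786, + strand, RefSeq, GRCm38.p6) are shown because they hold the insulin response element of this gene, part of which is CAAAACA, a motif that FOXO and FOXA factors bind. The letters in capitals mark it, from -108 to -102, and 6.28% of all windows held it on either strand.
*Igfbp1*: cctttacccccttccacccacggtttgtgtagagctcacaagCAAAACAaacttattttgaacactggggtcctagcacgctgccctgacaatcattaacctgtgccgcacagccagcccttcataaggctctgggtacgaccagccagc
No other member held CAAAACA in its windows, and 1, *Igfals*, held GTAAACA, another motif of these factors, which 3.65% of all windows held. The values of *Foxa2* and of genes that insulin represses through FOXO1 are given below.

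*Igfbp2* (ENSMUSG00000039323, chromosome 1, 72824503 to 72852474), the other carrier, was at 224, 307, 239 and 309 CPM in HFD WT replicates 1 to 4. Those labelled HFD Inpp4b-/- had, in the same order, 254, 162, 163 and 235 CPM. Replicates 2 and 3 of the latter lay below every HFD WT library. The log2 fold change was -0.41 (SE 0.18, 95% interval -0.80 to -0.01), with an adjusted p of 0.346 from edgeR, and it kept its sign in the 15 other fits, from -0.53 to -0.31.

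The wider pathway was described through 6 lists with 54 genes in all, of which 49 were tested. One gene was called, *Foxa2*, where 1.17% of tested genes were. Of the 49, 24 had a log2 fold change above 0 and 25 below, with a median of -0.02. An unadjusted p under 0.05 by edgeR was found for 16 of them, where 13.9% of tested genes had such a p. The lists were chosen with earlier results of these data known, so these shares are no test. The groups did not overlap for 7 of the 49, 3 higher and 4 lower under the label HFD Inpp4b-/-, beside 8.72% of all tested genes.

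Among the receptors and kinases (*Ghr*, *Jak2*, *Prlr*, *Igf1r*, *Igf2r* and *Insr*), 0 of 6 were called and log2 fold changes lay between -0.10 and 0.25. *Jak2*, the kinase that the growth hormone receptor activates, had 0.25 (adjusted p = 0.335 by edgeR), and *Insr*, the insulin receptor, 0.12 (0.557). Of 9 tested IGF ligands and carriers 0 were called. *Igfbp3*, the carrier that forms the large circulating complex with IGF1 and IGFALS and that comes mainly from non-parenchymal liver cells, was at 17.1, 16.7, 17.2 and 20.6 CPM in HFD WT replicates 1 to 4 and at 25.8, 20.8, 21.8 and 34.4 CPM in those labelled HFD Inpp4b-/-, with no overlap. Its log2 fold change of 0.52 (95% interval 0.16 to 0.88) missed the threshold with edgeR (adjusted p = 0.201) and was called by DESeq2 (adjusted p = 0.0999).

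Over the whole lists, the 6 endothelial markers summed to 108 to 136 CPM in HFD WT and 93.2 to 142 CPM in the libraries labelled HFD Inpp4b-/-, and the 7 stellate cell and fibroblast markers to 194 to 274 and 204 to 269 CPM. The 7 Kupffer cell and leukocyte markers in the table, all but *Cd3e*, summed to 45.9 to 123 CPM and 86.3 to 162 CPM, and the 5 bile duct markers to 23.7 to 31.6 and 29.7 to 40.6 CPM. The 4 erythroid markers summed to 109 to 430.1 and 208 to 346 CPM. The 7 Kupffer cell and leukocyte markers all had log2 fold changes above 0. Each of the 5 summed ranges overlapped between groups, 0 of their genes were called, and the part of cell composition in the values of *Igfbp3* was not tested. *Igfbp5* had a log2 fold change of -1.01 (adjusted p = 0.295 by edgeR), with overlapping groups.

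Of the 6 STAT genes 0 were called. *Stat3* had a log2 fold change of -0.67 (adjusted p = 0.286 by edgeR) and *Stat6*, which mediates interleukin 4 signals, -0.26 (0.260), the latter at 61.9 to 75.9 CPM in HFD WT and 51.0 to 61.3 CPM in the libraries labelled HFD Inpp4b-/-. Of the 14 negative regulators of the receptor signal, 0 were called. The phosphatase genes *Ptpn6* (log2 fold change 0.31, adjusted p = 0.252 by edgeR) and *Ptpn1* (-0.45, 0.293) lay on opposite sides. Of the proteases that cut IGF carriers and their inhibitors, *Htra1* alone was tested (-0.23, 0.776), while *Pappa* and *Stc2* were below the filter and *Pappa2* and *Stc1* were not in the table.

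Of 13 liver transcription factors, 1 was called. *Foxa2*, a factor that opens liver enhancers for other factors, rose. It was at 28.6, 27.4, 25.0 and 42.3 CPM in HFD WT replicates 1 to 4, and at 60.7, 86.2, 54.1 and 74.1 CPM in replicates 1 to 4 labelled HFD Inpp4b-/-, all above HFD WT. This gave a log2 fold change of 1.16 (SE 0.19, 95% interval 0.73 to 1.59, adjusted p = 0.0351 by edgeR), 2.23-fold. It missed the threshold without HFD WT replicate 1 (adjusted p = 0.103 by edgeR) or without replicate 2 labelled HFD Inpp4b-/- (0.109), with log2 fold changes of 1.13 and 1.03. *Foxa1*, its paralog, had 0.83 (adjusted p = 0.201 by edgeR) with overlapping groups and was called by DESeq2 (0.0520).

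**Figure D4:**
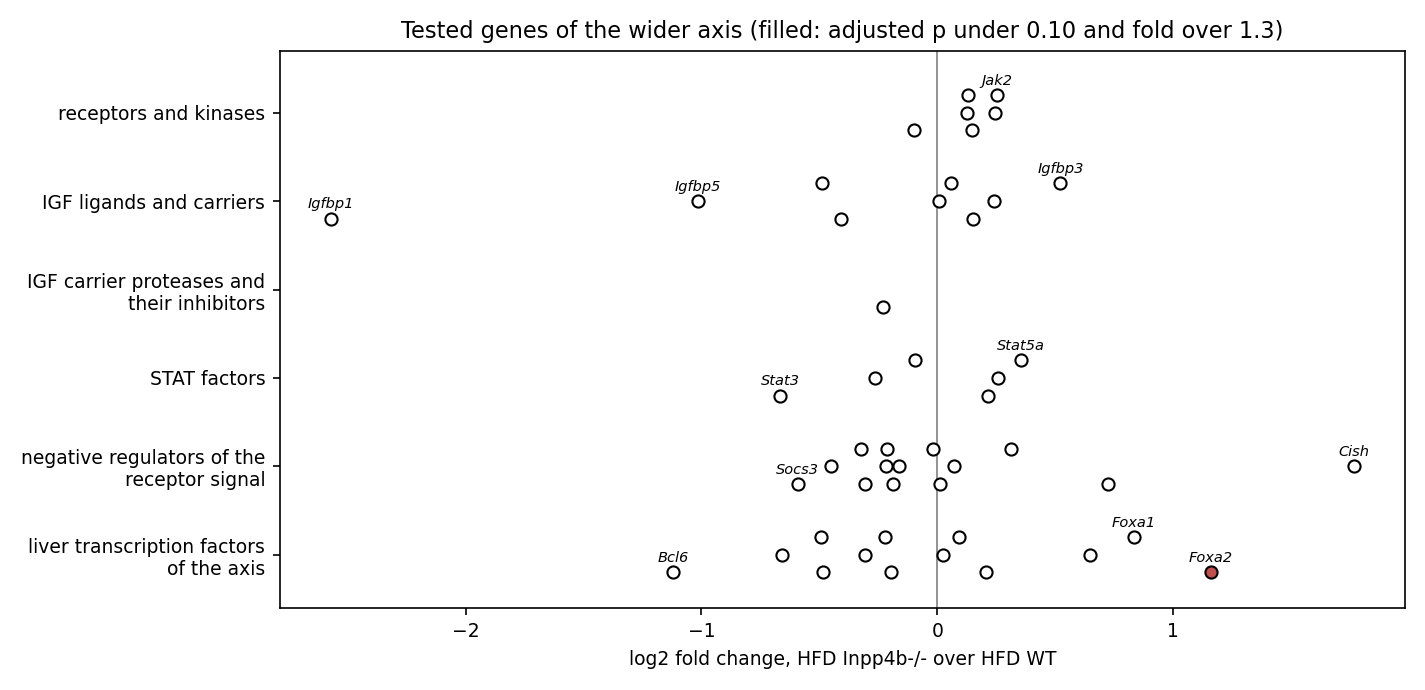
Log2 fold change (x axis, labelled HFD Inpp4b-/- over HFD WT) of each tested gene of the 6 axis lists (rows, with vertical scatter only to separate points). The filled point is *Foxa2* at 1.16, the 1 called gene, and the points farthest from 0 are *Igfbp1* at -2.57 and *Cish* at 1.77.

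Liver genes that respond to the pattern of growth hormone release lie downstream of this axis. Both lists used here were chosen with earlier results of these data known, so the shares set beside them are no test. Of 10 tested male-biased targets, 9 had log2 fold changes below 0 and 1 above, with a median of -0.61. The groups did not overlap for 4 of them, all lower under the label HFD Inpp4b-/-, beside 8.72% of all tested genes in either direction. Called lower were 3, where 0.619% of tested genes were. These were *Mup20* (log2 fold change -2.61), *Serpina1e* (-3.38) and *Cyp7b1* (-0.96), with adjusted p by edgeR of 0.0327, 0.0375 and 0.0869. Of 7 tested female-biased targets, 3 had log2 fold changes above 0 and 4 below. *Cyp2b9* alone was called and rose (4.93, adjusted p = 0.0433 by edgeR), where 0.552% of tested genes were called higher. *Cyp2b10* had -4.82 (0.264). The *Cyp2b10* value rested on HFD WT replicate 2, at 86.8 CPM beside at most 2.25 CPM in the other 7 libraries, and was -0.69 without it (adjusted p = 0.830 by edgeR), while *Cyp2b9* was 6.44 without it. *Mup20* missed the threshold without replicate 2 or 3 under that label (adjusted p by edgeR up to 0.125), *Cyp2b9* without HFD WT replicate 1 or replicate 2 or 3 under that label (up to 0.121), and *Cyp7b1* without any 1 library but HFD WT replicate 2 (up to 0.238). *Serpina1e* stayed called without any 1 library (up to 0.0986). *Mup20*, *Serpina1e* and *Cyp2b9* have near-identical relatives that can share their reads.

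Genes of insulin and glucocorticoid action, which also act on *Igfbp1*, were compared in the same fit. Of 9 tested FOXO1 targets that insulin represses, 0 were called, 4 had log2 fold changes below 0, and *Cited2* had 0.59 (adjusted p = 0.419 by edgeR). Of 8 tested glucocorticoid and fasting responsive genes, 1 was called lower, where 0.619% of tested genes were. Of the 8, 7 had log2 fold changes below 0 and 1 above, from -2.92 to 1.15. The groups did not overlap for 2, both lower under the label HFD Inpp4b-/-, beside 8.72% of all tested genes. An unadjusted p under 0.05 by edgeR was found for 5, where 13.9% of tested genes had one. This list too was chosen with earlier results of these data known. *Sgk1*, a kinase gene induced by glucocorticoids, fell (log2 fold change -0.58, adjusted p = 0.0804 by edgeR), but missed it when HFD WT replicate 1, HFD WT replicate 4 or any 1 library of the other group was left out (up to 0.207). *Tsc22d3* had -0.59 (adjusted p = 0.201 by edgeR). Of 13 tested clock genes 0 were called, with *Per1* at -0.97 (0.136) and *Dbp* at 0.35 (0.268). *Per1* was called without HFD WT replicate 3 (adjusted p = 0.0272 by edgeR) and with DESeq2 (0.00713).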

How the data were processed

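RNA from 8 livers was sequenced as 150-bp paired-end reads. The authors aligned them to GRCm38 with HISAT2, counted reads per gene with HTSeq and deposited raw counts of 18095 genes. Versions, annotation release and strand setting are not given in the sources used here. The table of the same counts divided by size factors, deposited beside it, was not used, and counts from the STAR alignment that the methods describe were not analysed here. Library preparation is described differently in the labels, which add removal of rRNA, and in the methods.

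Symbols, positions and exon lengths came from GENCODE M21, in which each of the 18095 identifiers was found. Counts were fitted with edgeR 4.0.16 in R 4.3.3 (TMM, filterByExpr, quasi-likelihood test, genotype only), with Benjamini-Hochberg adjustment over 14866 genes. A gene was called at the study's limits, an adjusted p below 0.10 with more than 1.3-fold change. The 95% intervals use the standard error and degrees of freedom of that fit. Exact permutation tests ran over the 70 arrangements of 4 against 4 on log2(CPM + 0.1), in Python 3.11.15 with scipy 1.17.1. The fit was tested on simulated data. No 2 libraries were close enough to be copies. DESeq2 1.42.0, other normalizations, filters and thresholds, a replicate block and leaving out libraries were the alternatives, and leaving out HFD WT replicates 1 and 4 together was chosen after seeing the data. Named genes are all members, the called genes of each list and up to 3 (axis lists) or 2 (other lists) more with the smallest p. *Socs3* was added after its values were seen, and marker genes are named as lists. One gene that this rule names is not reported here. The members and lists were chosen with earlier results of these data known.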

Additional observations from a re-analysis of the deposited data

How the results depend on the processing

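The number of differentially expressed genes (174) was 688 with DESeq2, 26 with the replicate number as a block, 71 at an adjusted p under 0.05, 87 without HFD WT replicates 1 and 4, and 53 to 345 without 1 library, lowest without replicate 2 labelled HFD Inpp4b-/- and highest without HFD WT replicate 2. Leaving out any 1 library but HFD WT replicate 4 moved this number by over 1.5 times. The 10 members had 1 call with DESeq2 and 0 to 1 without 1 library, and the axis lists 4 calls with DESeq2 and 0 to 2 without 1 library, 0 without HFD WT replicate 1 or replicate 2 labelled HFD Inpp4b-/- and 2 without HFD WT replicate 2. *Igfbp1* became a call with DESeq2 (log2 fold change -2.58) and without HFD WT replicate 2, within a range of -2.92 to -2.01 without 1 library. *Igf1* changed sign around 0, to -0.0029 with DESeq2's size factors in edgeR, -0.0024 with DESeq2 and -0.015 with the block, and ranged from -0.11 to 0.13 without 1 library. *Socs2* changed sign to 0.023 with the block and 0.92 without HFD WT replicates 1 and 4, and ranged from -0.59 to 0.56 without 1 library. The other 7 members kept their sign and stayed uncalled in all 15 other fits. The causes were not tested. Deviations from the group mean correlated at -0.194 to -0.05 between same-numbered libraries and at -0.03 to 0.176 between the others. Replicate numbers thus gave no sign of pairing. These correlations are not independent, because deviations within a group sum to 0, so they cannot exclude a pairing by litter or cage. With the block, no member was called and *Foxa2* (1.17, edgeR's adjusted p = 0.0960) and *Cyp2b9* (0.0520) stayed called, whereas *Mup20* (0.151), *Serpina1e* (0.170), *Cyp7b1* (0.244) and *Sgk1* (0.264) did not. With 4 mice a genotype, the intervals of *Cish*, *Socs2*, *Bcl6* and *Igfbp1* were over 2 log2 units wide.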

Other observations

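Of 11693 tested genes with at least 50 counts on average, the 3 whose log2(CPM + 0.1) was most like that of *Igfbp1* over the 8 libraries were *Ssr2*, *Myo18a* and *Atp2a2*, with Pearson's r of 0.99, 0.99 and 0.98. *Ssr2* was at 105 and 108 CPM in HFD WT replicates 1 and 4 and at 74.9 to 85.0 CPM in the other 6 libraries. The *Igfbp1* pattern, high in the same pair of HFD WT mice, was shared at r above 0.9 by 88 genes. The 3 most like *Igf1* were *Gpcpd1*, *Irf2* and *Cipc* (r of 0.98, 0.96 and 0.95), and 21 genes exceeded 0.9. *Gpcpd1* was at 139, 95.6, 67.7 and 82.5 CPM in HFD WT replicates 1 to 4 and at 51.9, 75.6, 134 and 190.1 CPM in replicates 1 to 4 labelled HFD Inpp4b-/-. These are descriptions over 8 libraries that share 2 genotypes, chosen as the highest of many correlations.

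In 20 groups of 4 libraries, 2 for each member, no library lay beyond Dixon's 95% limit, where chance gives about 1.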
